A study of Homo sapiens with 6 samples.

Results

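The genes described here encode the enzymes of glycolysis, the pentose phosphate pathway and the tricarboxylic acid (TCA) cycle, together with the PFKFB and PDK regulators and the coactivator PPARGC1A. They were chosen by name: 46 gene symbols were listed, and the array probes whose platform annotation carried a listed symbol were taken. Of the 46 genes, 45 had a probe, and FH, fumarate hydratase, was not analysed here. The 45 had 75 probes, of which 59 were detected well enough to be tested, and these 59 represent 42 genes out of 11220 tested on the arrays.

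Glycolysis splits glucose into pyruvate in the cytosol, and lactate dehydrogenase turns pyruvate into lactate. Pyruvate dehydrogenase instead passes pyruvate into the mitochondrial TCA cycle as acetyl-CoA, and the PDK kinases switch that complex off by phosphorylation. The pentose phosphate pathway branches from glucose 6-phosphate and supplies NADPH and ribose 5-phosphate for nucleotide synthesis. Melanoma cells driven by RAF signalling are known for high glucose use and lactate release, and ERK signalling is known to sustain transcription factors that act on these genes.

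Messenger RNA was measured in A375, an established human melanoma line, in a single comparison. The 3 control samples received the solvent DMSO for 24 h, and the other 3 were kept as long in 3 µM vemurafenib, a drug that blocks RAF-family kinases. No genotype or other agent differs between the groups, and all 6 samples come from the same line, which limits what they show about melanoma at large. Within each group the labels carry no number, the number 1 or the number 2, and the samples are called unnumbered, 1 and 2 below. Whether each sample was a culture of its own is not in the labels, so the spread behind every p-value here is that of these 3 samples and could be technical.

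Values are normalised log2 intensities, 1 array per sample, so that a difference of 1 is a doubling of signal. A gene was called where limma's adjusted p for vemurafenib minus DMSO was under 0.05, and a gene with several probes is given by its brightest tested probe unless another is named. Median raw signals lay between 91.0 and 94.5 intensity units. Detected probes numbered 18370 to 18628 on the DMSO arrays and 18666 to 20044 on the vemurafenib arrays, ranges that do not overlap, and the part of this in the results was not tested. Of 10 melanocytic markers, 9 had a probe, DCT being without, and 3 were tested. SOX10, MITF and S100A1 were detected on all 6 arrays at their brightest probe, whereas TYR, TYRP1, S100B and GPM6B were detected on none. PMEL was detected on 2 vemurafenib arrays and MLANA on 1 DMSO array, and the dimmer MITF probes on none. The labelled line thus showed SOX10 and MITF without the pigment enzymes TYR and TYRP1, and the listed markers did not all go the same way. Of 15 ERK output genes tested, which include MYC, 14 fell, with SPRY4, a feedback inhibitor of the pathway, at -3.89 (limma, adjusted p = 0.00123). All 32 genes of mitosis and S phase had lower values with the drug and 30 fell. Their summed intensity was 36473 to 46639 in DMSO and 8839 to 23196 in vemurafenib, and the part of this fall in the changes below was not tested. The number of these genes called fell to between 1 and 8 without any of DMSO unnumbered, DMSO 1, DMSO 2, vemurafenib unnumbered or vemurafenib 1, and was 32 without vemurafenib 2. Of 6 fibroblast genes, 3 were tested, at a low summed intensity of 73 to 94 in DMSO and 131 to 249 in vemurafenib. COL1A1 and DCN were detected on no DMSO array and on all 3 vemurafenib arrays, so they entered the test only through the group where they are high, and LUM was detected on all 6 arrays. Of the fibroblast genes not tested, COL3A1 was detected on 2 vemurafenib arrays and COL1A2 on 1, and neither on a DMSO array. PDGFRA was not above background on at least 4 arrays, and the part of these genes in the results was not tested. None of 5 endothelial genes could be tested. VWF was detected on 2 vemurafenib arrays, PECAM1 on 1 DMSO array and the other endothelial genes on none. The leukocyte gene PTPRC was detected on no array. Of the other leukocyte genes, CD14 and LYZ were tested near background, with differences of -0.04 and -0.27 that did not pass. In a bulk sample, fewer cells of a type and less RNA per cell cannot be told apart.

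Vemurafenib changed 4 of the 42 tested genes (9.52%), against 1800 of the 11220 genes tested (16%). IDH1 and PDK2 rose, where 8.09% of all genes rose, and HK2 and RPIA fell, where 7.95% of all genes fell. The other 38 of the 42 did not pass, and the difference between the shares was not tested. The median log2 change of all 42, called genes included, was -0.01, within a range from -1.52 to 1.04, beside a median of 0.05 over all genes. At an unadjusted p under 0.05 there were 8 of the 42, against 3962 of all genes. With the sample number as a block the 4 stayed called and PGLS and IDH3A joined them, 6 genes (14.3%) beside 29.8% of all genes. In 11 of the 42 genes the 3 treated values did not overlap the 3 control values, a separation that 39.9% of all genes showed.

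**Figure D1:**
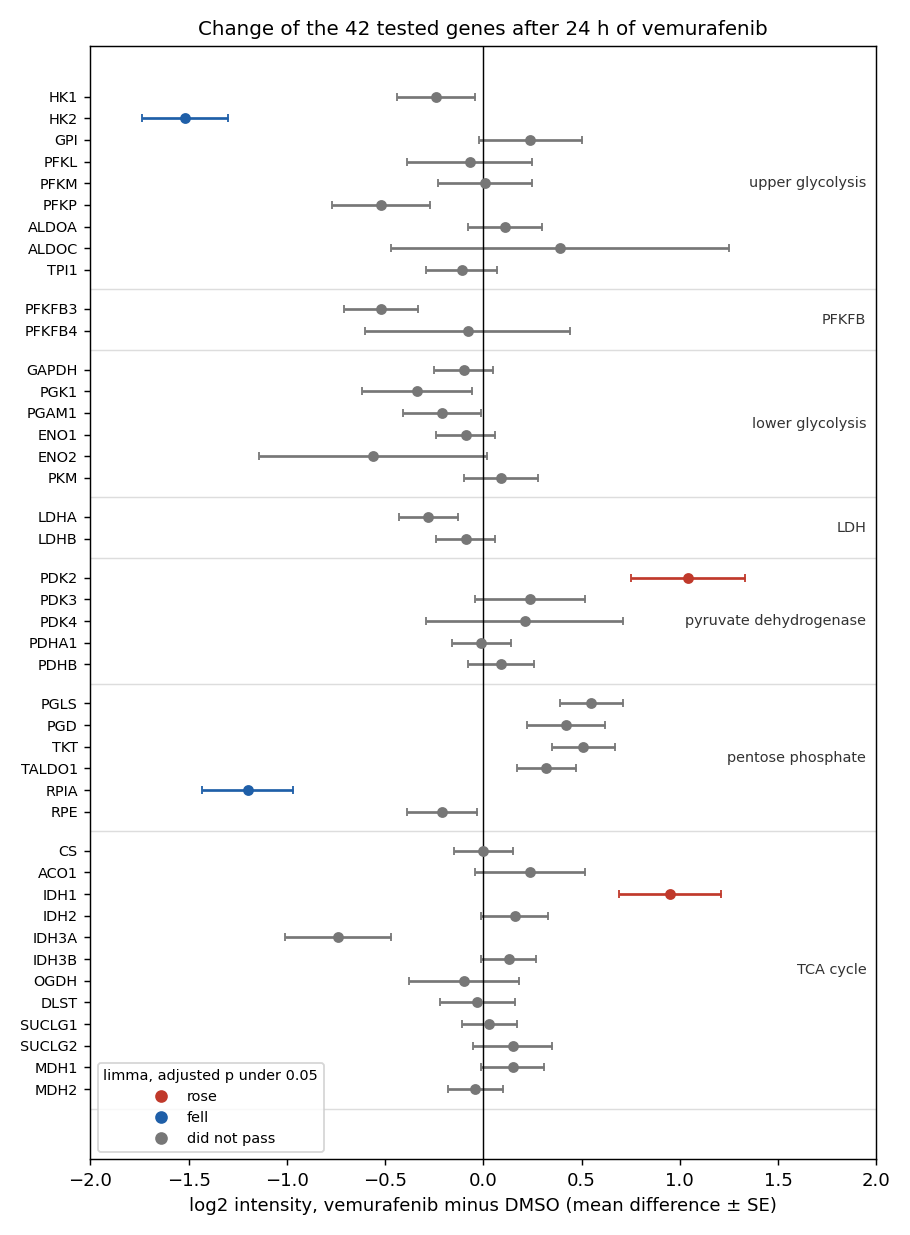
Log2 difference in normalised intensity between vemurafenib and DMSO (horizontal axis, mean difference with its standard error, n = 3 samples per group) for the 42 tested genes, grouped by pathway step. HK2 at -1.52 and RPIA at -1.20 lie far to the left, PDK2 at 1.04 and IDH1 at 0.95 to the right, and most of the other genes lie near 0.

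The promoters of the 4 changed genes are printed here because MYC, which binds the E-box, fell with the drug and because hypoxia-inducible genes varied between samples, as described below. The windows are from RefSeq (GRCh38.p14) and are written 5′ to 3′ on the gene's strand. Each runs from 250 bases before to 50 bases after 1 start position per gene. For IDH1 this position lies inside the annotated gene and not at its outer end. Capitals mark the E-box CACGTG and the hypoxia core in its forms ACGTG and GCGTG, searched on both strands, so CACGT and CACGC are the same cores on the opposite strand. An E-box holds ACGTG on each strand and is counted under both. The HK2 window lies at chr2:74833877-74834176 on the plus strand, the RPIA window at chr2:88691423-88691722 on the plus strand, the PDK2 window at chr17:50094487-50094786 on the plus strand and the IDH1 window at chr2:208254409-208254708 on the minus strand.
HK2: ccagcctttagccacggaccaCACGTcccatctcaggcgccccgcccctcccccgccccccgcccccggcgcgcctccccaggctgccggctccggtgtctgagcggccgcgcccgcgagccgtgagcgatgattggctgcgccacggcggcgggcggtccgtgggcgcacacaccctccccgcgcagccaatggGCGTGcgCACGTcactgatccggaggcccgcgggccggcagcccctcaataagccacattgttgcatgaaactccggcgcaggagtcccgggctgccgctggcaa
RPIA: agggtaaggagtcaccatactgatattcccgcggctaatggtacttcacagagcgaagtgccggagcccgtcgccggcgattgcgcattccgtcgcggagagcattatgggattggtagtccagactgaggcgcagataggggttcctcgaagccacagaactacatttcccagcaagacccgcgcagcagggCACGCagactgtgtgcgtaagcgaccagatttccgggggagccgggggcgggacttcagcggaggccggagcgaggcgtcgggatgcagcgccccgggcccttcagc
PDK2: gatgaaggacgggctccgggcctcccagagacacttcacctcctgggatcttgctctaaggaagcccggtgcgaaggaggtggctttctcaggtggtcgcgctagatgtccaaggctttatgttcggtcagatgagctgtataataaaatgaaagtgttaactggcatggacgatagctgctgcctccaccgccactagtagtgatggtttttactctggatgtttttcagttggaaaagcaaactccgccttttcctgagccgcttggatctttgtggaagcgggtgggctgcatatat
IDH1: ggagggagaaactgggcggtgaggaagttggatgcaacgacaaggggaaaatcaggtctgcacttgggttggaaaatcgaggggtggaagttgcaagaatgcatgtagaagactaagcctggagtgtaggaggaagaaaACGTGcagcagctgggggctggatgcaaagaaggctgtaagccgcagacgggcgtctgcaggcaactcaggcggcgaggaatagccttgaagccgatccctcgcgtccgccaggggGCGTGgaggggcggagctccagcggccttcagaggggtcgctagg
None of the 4 windows holds the E-box. HK2 carries 2 copies of ACGTG and 1 of GCGTG, RPIA carries 1 GCGTG, IDH1 carries 1 of each form, and PDK2 carries neither letter string. Of the 46 genes, 44 had a window, PFKFB2 and OGDH being without. Among the 44 the E-box stood in 5 (11.4%, ALDOC, GAPDH, LDHA, PDHB and PPARGC1A), beside 7.4% of the 27305 windows of all genes. ACGTG stood in 29.5% against 21.6%, and GCGTG in 52.3% against 36.3%. The cAMP element core TGACG stood in 31.8% against 25.0%, and the M-box TCATGTG, the letters bound by MITF, in 0 of 44 against 3.0%. A match describes the letters only. The 27305 windows were not matched to the 44 for base composition, gene type or expression, so the shares are not like for like.

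HK2, the hexokinase isoform that traps glucose in many tumour cells, fell most. Its log2 intensity was 9.07, 8.77 and 8.32 in DMSO unnumbered, 1 and 2, and 7.09, 7.36 and 7.17 in the corresponding vemurafenib samples. All 3 treated samples lay below all 3 controls. The mean went from 8.72 ± 0.37 to 7.21 ± 0.14 (SD, n = 3), a log2 change of -1.52 (SE 0.22) and a 2.86-fold fall (limma, adjusted p = 0.00786). A second, dimmer HK2 probe fell too, with a log2 change of -0.82 (limma, adjusted p = 0.0305). HK2 stayed called when any array was left out, with a highest adjusted p of 0.0461. HK1, the more widely expressed hexokinase, moved from 11.30 ± 0.33 to 11.07 ± 0.12, a change of -0.24 that did not pass (limma, adjusted p = 0.472).

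Across the 9 tested genes of upper glycolysis, from hexokinase to aldolase and triose phosphate isomerase, HK2 alone was called, and the median change was -0.07. PFKP, the platelet-type phosphofructokinase, had values of 10.88, 10.88 and 10.24 in DMSO and 10.11, 10.49 and 9.84 in vemurafenib. Its groups overlapped, and the change of -0.52 did not pass (limma, adjusted p = 0.196, or 0.0506 with the block). The liver-type PFKL and muscle-type PFKM changed by -0.07 and 0.01, neither passing. GPI, which isomerises glucose 6-phosphate, stood at 0.24, the main aldolase ALDOA at 0.11 and TPI1 at -0.11. ALDOC, the brain-type aldolase, differed more between samples of a group than between groups. It read 11.82, 11.49 and 8.61 in DMSO and 11.08, 12.09 and 9.93 in vemurafenib, with the samples numbered 2 lowest in both. Its change of 0.39 had a standard error of 0.86.

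The PFKFB enzymes make and remove fructose 2,6-bisphosphate, the activator of phosphofructokinase. PFKFB3, whose kinase activity predominates, read 9.42, 9.60 and 9.33 in DMSO and 8.95, 8.64 and 9.20 in vemurafenib. The treated values lay below the controls without overlap, but the change of -0.52 (SE 0.19) did not pass (limma, adjusted p = 0.108). It passed without vemurafenib 2 (limma, adjusted p = 0.0472) and not with any other array left out. PFKFB4 differed by -0.08 between groups, with DMSO 2 at 8.83 against 10.79 and 10.76 in the other DMSO samples. PFKFB2 was not tested: its best probe was detected on no DMSO array and on 2 vemurafenib arrays, and its values overlapped, with 4.93, 4.57 and 4.37 in DMSO and 5.14, 4.56 and 4.87 in vemurafenib.

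None of the 6 genes of lower glycolysis was called by limma, none had an unadjusted p under 0.05, and none was called with the block. Of the 11220 genes tested, 16% were called, 3962 had such an unadjusted p, and 29.8% were called with the block. GAPDH, which oxidises glyceraldehyde 3-phosphate and is often used as a reference gene, read 13.71, 13.81 and 13.56 in DMSO and 13.58, 13.57 and 13.62 in vemurafenib. The groups overlapped, and the change of -0.10 (SE 0.15) did not pass (limma, adjusted p = 0.684). Its other probes differed by 0.09 and 0.13, so the sign depends on the probe. ENO2, the neuronal enolase, read 9.59, 9.36 and 7.38 in DMSO and 8.14, 8.86 and 7.64 in vemurafenib. DMSO 2 lay below every treated sample, and the change of -0.56 (SE 0.58) did not pass (limma, adjusted p = 0.547). PGK1 and PKM, the enzymes that make ATP in this stretch, stood at -0.34 and 0.09, PGAM1 at -0.21 and the main enolase ENO1 at -0.09. Their values passed no test in either direction.

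LDHA, the subunit that favours conversion of pyruvate to lactate, read 13.41, 13.42 and 13.27 in DMSO and 13.14, 13.13 and 12.99 in vemurafenib. The groups did not overlap, but the difference of -0.28 (SE 0.15) did not pass (limma, adjusted p = 0.236). The 3 LDHA probes disagreed on the call. The dimmest, at 6.89 ± 0.06 in DMSO and 6.27 ± 0.22 in vemurafenib, fell by 0.62 (limma, adjusted p = 0.0493), and the other differed by -0.17. LDHB, the subunit typical of heart, stood at -0.09. Neither lactate dehydrogenase gene had an unadjusted p under 0.05 at its brightest probe, and neither was called with the block.

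PDK2, a kinase that inhibits pyruvate dehydrogenase, rose from a level near background. It read 5.36, 4.93 and 4.53 in DMSO and 6.31, 6.14 and 5.48 in vemurafenib. The lowest treated value lay just above the highest control. The mean went from 4.94 ± 0.41 to 5.98 ± 0.44, a log2 change of 1.04 (SE 0.29) and 2.05-fold (limma, adjusted p = 0.0490, or 0.00514 with the block). The call was lost without DMSO unnumbered (0.0647), DMSO 1 (0.114), DMSO 2 (0.111), vemurafenib unnumbered (0.171) or vemurafenib 1 (0.155), and the size of the change was 0.41 with no background correction, where it did not pass (limma, adjusted p = 0.0730).

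The other kinases were not called. PDK4, which responds to fasting signals, read 6.92, 6.58 and 5.39 in DMSO and 6.87, 7.12 and 5.53 in vemurafenib, so both samples numbered 2 lay more than 1 log2 unit below the rest of their group. PDK3 differed by 0.24. PDK1, a hypoxia-inducible kinase, was not tested, its probe being detected on no DMSO array and 1 vemurafenib array, and its values overlapped. The pyruvate dehydrogenase subunits themselves stood at -0.01 for PDHA1 and 0.09 for PDHB.

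RPIA, which converts ribulose 5-phosphate to the ribose 5-phosphate of nucleotides, fell. It read 8.85, 8.74 and 9.06 in DMSO and 7.30, 7.64 and 8.12 in vemurafenib. The treated samples all lay below the controls, with vemurafenib 2 nearest to them. The mean went from 8.88 ± 0.16 to 7.69 ± 0.42, a change of -1.20 (SE 0.23) and a 2.30-fold fall (limma, adjusted p = 0.0183). The call was lost without DMSO unnumbered (0.0626), DMSO 1 (0.0504), vemurafenib unnumbered (0.0720) or vemurafenib 1 (0.0740), with the treated mean still the lower in each of these fits.

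No other pentose phosphate gene fell. PGLS, the lactonase of the NADPH-making branch, read 9.51, 9.62 and 9.28 in DMSO and 10.02, 10.02 and 10.03 in vemurafenib. The groups did not overlap, and the change of 0.55 (SE 0.16) missed the threshold without the block (limma, adjusted p = 0.0544) and passed with it (0.0380). TKT, the transketolase that links the pathway back to glycolysis, read 12.32, 12.24 and 12.55 in DMSO and 12.86, 12.98 and 12.79 in vemurafenib, higher in all treated samples. Its change of 0.51 did not pass (limma, adjusted p = 0.0739, or 0.0606 with the block). PGD, the NADPH-making dehydrogenase, stood at 0.42 (limma, adjusted p = 0.198) and transaldolase TALDO1 at 0.32 (limma, adjusted p = 0.182). RPE, the epimerase that acts on the same substrate as RPIA, stood at -0.21. The median of the 6 genes was 0.37, with 1 called, and in 4 of the 6 the groups did not overlap, where 39.9% of all genes showed no overlap and 16% were called.

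**Figure D2:**
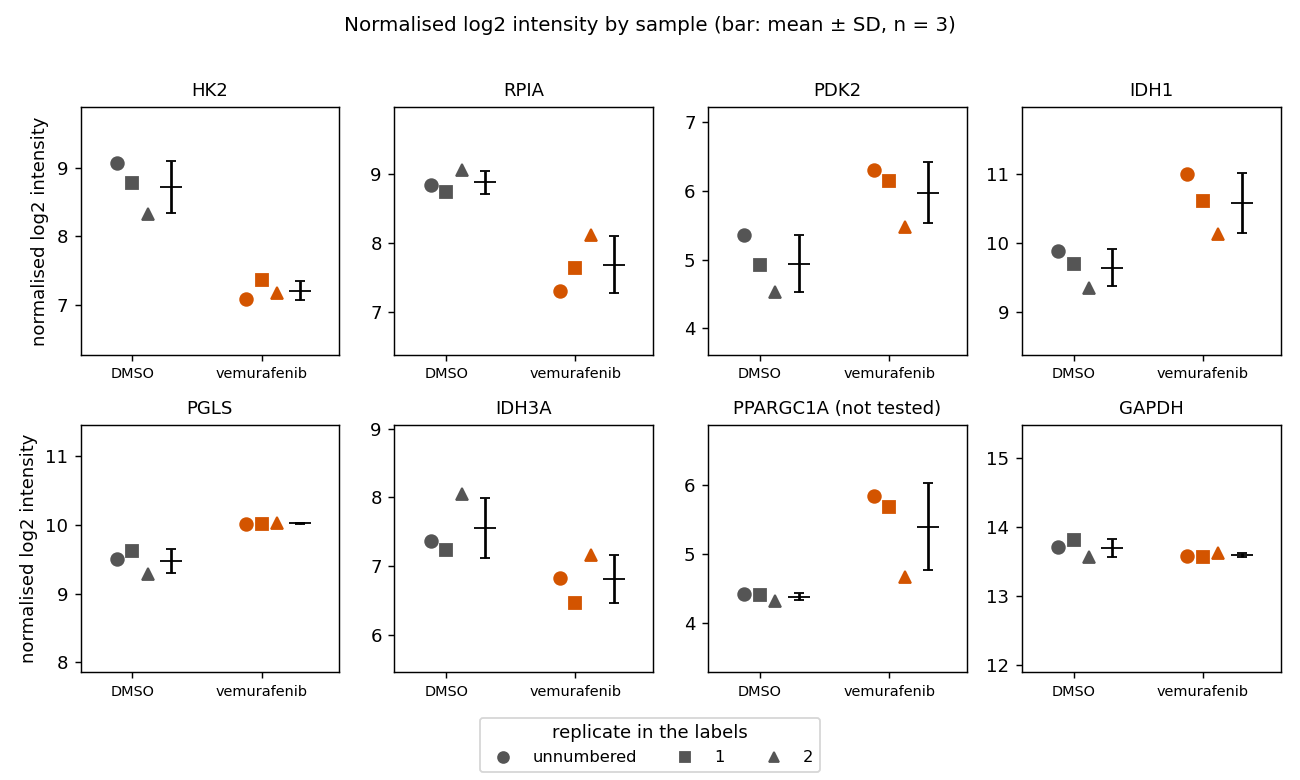
Normalised log2 intensity of 8 genes in each of the 6 samples, with the mean ± SD (n = 3) of each group beside the points. The shape gives the sample's number. The vertical axis has the same span in every panel and is centred on the values of its gene. HK2 and RPIA lie lower and PDK2, IDH1 and PGLS higher in all 3 vemurafenib samples, IDH3A lies lower in all 3, PPARGC1A is at background in DMSO, and GAPDH overlaps.

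Of the 12 tested genes of the TCA cycle and related dehydrogenases, IDH1 was called and the median change was 0.08. IDH1 is the cytosolic, NADP-dependent isocitrate dehydrogenase. It read 9.89, 9.70 and 9.35 in DMSO and 11.01, 10.62 and 10.14 in vemurafenib. Every treated sample lay above every control. The mean went from 9.65 ± 0.27 to 10.59 ± 0.44, a change of 0.95 (SE 0.26) and 1.93-fold (limma, adjusted p = 0.0454, or 0.00674 with the block). The call was lost without DMSO unnumbered (0.0839), DMSO 1 (0.102), DMSO 2 (0.105), vemurafenib unnumbered (0.152) or vemurafenib 1 (0.137), and with the arrays centred on their medians (0.0526). A dimmer IDH1 probe differed by 0.81 without passing (limma, adjusted p = 0.215), and there vemurafenib 2 at 7.53 lay among the controls.

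IDH3A, the catalytic subunit of the NAD-dependent mitochondrial enzyme, read 7.37, 7.24 and 8.05 in DMSO and 6.83, 6.46 and 7.16 in vemurafenib. The treated values all lay below the controls, and both samples numbered 2 stood highest in their group. The change of -0.74 (SE 0.27) did not pass without the block (limma, adjusted p = 0.106) and passed with it (0.0153). IDH3B, its regulatory partner, stood at 0.13 and the mitochondrial NADP-dependent IDH2 at 0.16. The remaining genes stayed within 0.24 of 0. Citrate synthase CS stood at 0.00, the cytosolic aconitase ACO1 at 0.24, and OGDH and DLST of the oxoglutarate dehydrogenase complex at -0.10 and -0.03. The succinyl-CoA ligase subunits SUCLG1 and SUCLG2 stood at 0.03 and 0.15, and the malate dehydrogenases MDH1 (cytosolic) and MDH2 (mitochondrial) at 0.15 and -0.04.

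PPARGC1A, a coactivator that raises mitochondrial gene expression and is known as a target of MITF in melanocytic cells, was not tested, since its probe was detected on no DMSO array and on 2 of the 3 vemurafenib arrays. It read 4.42, 4.40 and 4.32 in DMSO, all not well above background, and 5.84, 5.69 and 4.67 in vemurafenib. The unnumbered and 1 samples stood out while vemurafenib 2 was not detected. The treated mean stood 1.98-fold over the background floor of the DMSO arrays. That mean includes the undetected vemurafenib 2, so the fold is an estimate and not a lower bound on the change. Where no probe was filtered out, limma gave a log2 change of 1.02 and an adjusted p of 0.148, or 0.0849 with the block.

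Pairs of isozymes or of subunits of 1 enzyme were compared through the difference of their log2 values within each sample. Of 14 such pairs, 12 had both genes tested. Of these 12, 5 differed without overlap between the groups. Among single genes 39.9% showed no overlap, and the share over other gene pairs was not computed. Each of the 5 had an exact permutation p of 0.1 (two-sided), the smallest that 3 samples against 3 can give. After Benjamini-Hochberg adjustment over the 12 it was 0.24. HK2 minus HK1 went from -2.58 ± 0.12 to -3.86 ± 0.06 (SD, n = 3), a shift of -1.28 against HK2. PDK2 minus PDK3 shifted by 0.79, IDH2 minus IDH1 by -0.78, PFKM minus PFKP by 0.53 and PFKL minus PFKP by 0.45. The 5 are not separate observations, since HK2, PDK2 and IDH1 were called above and PFKP stands in each phosphofructokinase pair. In the other 7 pairs the groups overlapped, among them LDHB minus LDHA at 0.19 and ENO2 minus ENO1 at -0.47. These values concern unequal change, since the levels of different probes cannot be set against each other.

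The samples numbered 2 stood apart in the glycolytic genes, though not in these alone. Among the 19 tested genes from hexokinase to lactate dehydrogenase, PFKFB enzymes included, 15 (78.9%) were lower in the sample numbered 2 than in the mean of the other samples of its group in both groups. This held for 33.8% of all genes, for 6 of the 12 TCA genes and for 14 of 16 hypoxia-inducible targets (87.5%). Over all 42 metabolic genes, glycolytic ones included, it held for 27 (64.3%). The 5 tested genes of pyruvate dehydrogenase and its kinases had median offsets of -0.61 in DMSO and -0.33 in vemurafenib. The median offset of the glycolytic genes was -0.58 log2 units in DMSO and -0.33 in vemurafenib, beside -0.98 and -0.55 for the hypoxia-inducible targets and 0.01 and 0.00 for all genes. In vemurafenib 2 the genes of mitosis and S phase stood 1.55 above the other treated samples, as a median. None of the 16 hypoxia-inducible targets was called by limma, where 16% of all genes were called. Of the 16, 2 had an unadjusted limma p under 0.05, beside 3962 of the 11220 genes tested. With the block 3 fell, where 29.8% of all genes were called. The targets with the brightest probes were BNIP3, a mitophagy receptor, at -0.79 (limma, adjusted p = 0.281), and the stress-induced mTORC1 inhibitor DDIT4 at 0.32 (limma, adjusted p = 0.488). Of the 2 keratinocyte genes tested, KRT14 read 5.47 in DMSO 2 against 4.42 and 4.32, and 7.01 in vemurafenib 2 against 4.57 and 4.94. KRT10, the other, was detected on all 6 arrays. Its samples numbered 2 lay 0.23 (DMSO) and 0.19 (vemurafenib) above the mean of the others of their group. KRT5, KRT1 and DSG3 were detected on no array. What set these samples apart was not tested. Without both samples numbered 2, 8 of the 42 metabolic genes were called beside 32.5% of all genes, and TKT rose while ENO2, PFKFB3 and IDH3A fell in addition to the 4 above.

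**Figure D3:**
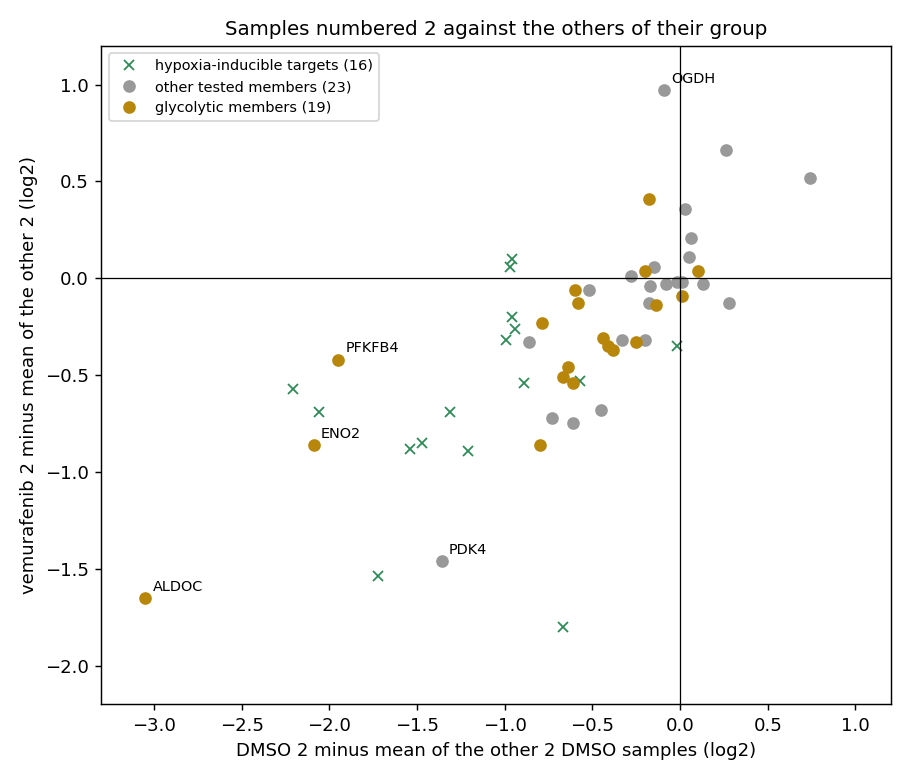
Offset of the sample numbered 2 from the mean of the other samples of its group, in DMSO (horizontal axis, log2) and in vemurafenib (vertical axis, log2), for the tested metabolic genes and the 16 hypoxia-inducible targets, 1 point per gene. Most glycolytic genes and hypoxia-inducible targets lie in the lower left, where the sample numbered 2 is low in both groups, with ALDOC, ENO2 and PFKFB4 farthest out among the glycolytic genes.

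Further genes of the same pathways were taken from lists by function. Of 24 other glycolytic, pentose phosphate and glycogen enzymes tested, 4 rose and 1 fell (20.8%, beside 16% of all genes), with a median of 0.12. With the block 6 rose and 1 fell, where 29.8% of all genes were called. ENO3, the muscle enolase, read 7.46, 7.89 and 6.60 in DMSO and 8.89, 8.75 and 8.87 in vemurafenib and rose by 1.52 (SE 0.31; limma, adjusted p = 0.0210). All of its treated values lay above the controls. RBKS, a ribokinase that feeds ribose into the pentose phosphate pathway, rose by 1.43 (limma, adjusted p = 0.0101), PYGL, the liver glycogen phosphorylase, by 1.30 (limma, adjusted p = 0.0159), and PC, the pyruvate carboxylase that refills the TCA cycle, by 0.84 (limma, adjusted p = 0.0169). The gene that fell was PGM2, a phosphopentomutase, at -0.68 (limma, adjusted p = 0.0308). The rises numbered 1 without DMSO unnumbered, 0 without vemurafenib unnumbered and 1 without vemurafenib 1, and 4 without any other array. Of single genes, ENO3 lost its call without DMSO unnumbered (0.0618), vemurafenib unnumbered (0.0870) or vemurafenib 1 (0.0726), PYGL without the same arrays (0.0526, 0.0743 and 0.0676) and PC likewise (0.0677, 0.0747 and 0.0574). RBKS lost it without vemurafenib unnumbered alone (0.0509). PGM2 lost it without every array other than vemurafenib 2, with adjusted p from 0.0648 to 0.116.

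Of 20 other pyruvate dehydrogenase, TCA and anaplerotic enzymes, 2 rose and 0 fell by limma (10%, beside 16% of all genes). An unadjusted limma p under 0.05 was seen for 4 of the 20, beside 3962 of the 11220 genes tested. With the block 3 rose and 1 fell, where 29.8% of all genes were called. NNT, the mitochondrial transhydrogenase that makes NADPH, read 8.10, 8.19 and 8.30 in DMSO and 9.05, 9.12 and 8.98 in vemurafenib. It rose by 0.85 (SE 0.15; limma, adjusted p = 0.0147), with no overlap. ME1, the cytosolic malic enzyme, which also makes NADPH, rose by 0.70 (limma, adjusted p = 0.0278). Both calls were kept without DMSO 2 or without vemurafenib 2, and neither was kept without DMSO unnumbered (0.0620 for NNT and 0.0813 for ME1), DMSO 1 (0.0537 and 0.0910), vemurafenib unnumbered (0.0668 and 0.111) or vemurafenib 1 (0.0655 and 0.0829).

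Of 13 transporters of glucose, lactate, pyruvate and citrate, 1 rose and 0 fell by limma (7.69%, beside 16% of all genes). An unadjusted limma p under 0.05 was seen for 5 of the 13, beside 3962 of the 11220 genes tested. With the block 3 rose and 2 fell, where 29.8% of all genes were called. SLC2A10, a facilitative sugar transporter, read 5.71, 4.71 and 4.27 in DMSO and 6.65, 6.39 and 5.89 in vemurafenib. It was detected on 1 of the 3 DMSO arrays and on all 3 vemurafenib arrays, so it entered the test only through the group where it is high and its DMSO level is near background. Its fitted rise of 1.41 (SE 0.37; limma, adjusted p = 0.0429) is therefore approximate. With detection required on all 6 arrays SLC2A10 was left out of the test, and none of the 10 transporters still tested was called. No transporter was called by limma with no background correction, with the deposited log2 values or without the filter on dim probes. The call of SLC2A10 was also lost without DMSO 1 (0.112), DMSO 2 (0.0908), vemurafenib unnumbered (0.154) or vemurafenib 1 (0.133). SLC2A1, the main glucose transporter of many tumour cells, was picked out after its values were seen. It read 10.74, 10.48 and 11.08 in DMSO and 9.49, 10.11 and 10.60 in vemurafenib, a difference of -0.70 that did not pass (limma, adjusted p = 0.149) and passed with the block (0.0474).

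Of 23 regulators of glucose and mitochondrial metabolism, 2 rose and 5 fell (30.4%, beside 16% of all genes). With the block 4 rose and 7 fell, where 29.8% of all genes were called. MYC, which drives many glycolytic genes, read 9.35, 9.29 and 8.83 in DMSO and 6.65, 6.65 and 6.08 in vemurafenib. It had a log2 change of -2.70 (SE 0.23; limma, adjusted p = 0.00127), with the groups far apart, and stayed called without any array. TFB1M, a mitochondrial ribosomal RNA methyltransferase, stood at -1.62 (limma, adjusted p = 0.0108), GABPB1, a subunit of the nuclear respiratory factor GABP, at -1.20 (limma, adjusted p = 0.00856), and PPRC1, a relative of PPARGC1A, at -1.16 (limma, adjusted p = 0.0159). TFAM, which packages mitochondrial DNA, was the other gene that fell, at -0.90 (limma, adjusted p = 0.0477). FOXO3 at 0.89 (limma, adjusted p = 0.0432) and MITF at 0.75 (limma, adjusted p = 0.0333) rose. The falls numbered between 2 and 6 and the rises between 0 and 5 as each array was left out. The falls numbered 2 without vemurafenib unnumbered and 3 without vemurafenib 1, and the rises were 5 without vemurafenib 2 and 0 without each of the others. TFAM, FOXO3 and MITF were called without vemurafenib 2 alone, with adjusted p otherwise from 0.0718 for MITF to 0.167 for TFAM. PPRC1 lost its call without vemurafenib unnumbered (0.0737) or vemurafenib 1 (0.0666), TFB1M without vemurafenib unnumbered (0.0558), and GABPB1 and MYC under none.

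**Figure D4:**
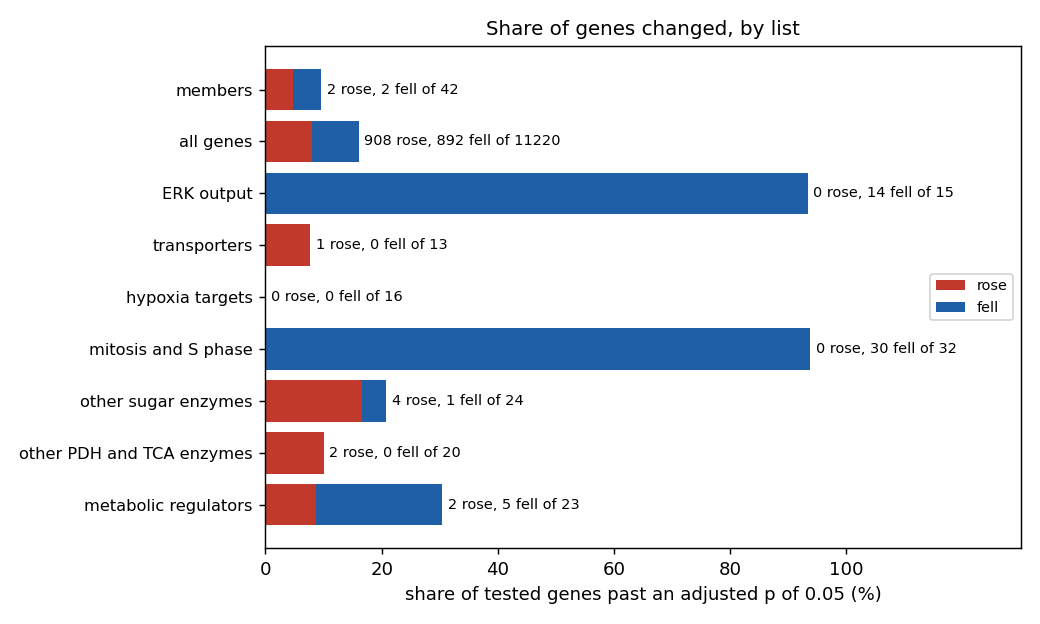
Share of tested genes past an adjusted p of 0.05 (horizontal axis, percent; limma), split into genes that rose and genes that fell, for the metabolic genes, all genes tested and 7 lists by function. The metabolic genes stand at 9.52% and all genes at 16%, while the ERK output genes (14 of 15) and the genes of mitosis and S phase (30 of 32) fell almost throughout.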

How the data were processed

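Total RNA of 6 samples of A375 cells, 3 given DMSO and 3 given vemurafenib, was labelled with biotin as amplified RNA for Illumina bead arrays, per the labels. The deposited table holds the linear intensity of 48107 probes per array, with no background subtraction or normalization that the values show. It also gives a detection p-value for each probe and array, as deposited by the authors; the method behind it is not given in the sources at hand. Another deposited table holds log2 values, which match quantile-normalised log2 intensities without background correction to within 0.0513 (92.6% of values within 0.03).

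The normexp model of limma 3.58.1 (R 4.3.3) removed background estimated from the detection p-values (offset 16), and arrays were quantile normalised on the log2 scale. Kept probes had a detection p below 0.01 on 3 or more of the 6 arrays (18747, after 4 with missing values were left out), and each gene was given by its brightest kept probe (11220 genes). Names came from GEO's platform annotation, in which 30111 probes had 1 symbol, 8 several and 17984 none; all 75 probes of the genes described matched RefSeq by gene identifier with 0 symbols changed. Groups were compared with lmFit and eBayes without covariates. Benjamini-Hochberg adjustment ran over every kept probe, and the threshold was 0.05. The fit was tested on simulated data. A gene detected on no array of a group has a fold given as the brighter mean over a floor, the higher on each array of the lowest signal of a detected probe and that of the gene itself. This fold makes no allowance for the spread between samples. The number of arrays limits the precision.

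The sample numbers were checked for pairing. Deviations from the group means correlated at 0.19 for the unnumbered samples, 0.35 for those numbered 1 and 0.52 for those numbered 2, so the numbers, which come from the labels, were taken to pair the samples. Across numbers, DMSO unnumbered with vemurafenib 1 gave 0.35 and DMSO 1 with vemurafenib unnumbered 0.26, so only the samples numbered 2 are set apart by this check. The fit with a replicate block is given where it changes a call of a gene described in full or a count of calls. The genes, the lists and the rule for naming genes were chosen with earlier results of these data known. The rule gives values in every sample for genes past the threshold, PPARGC1A, GAPDH and the largest change of each step with no call, and names up to 4 passing genes of each further list, or the 2 with the brightest probes if none passes. PGM2, TFAM, FOXO3, MITF, SLC2A1 and the genes called by the block alone were named after their values were seen. Alternatives changed the probe filter, background correction, offset, centring, eBayes options, block, probe choice and samples.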

Additional observations from a re-analysis of the deposited data

How the results depend on the processing

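Without the filter on dim probes 2 of 45 genes were called (HK2 and RPIA; 4.71% of all genes), and with limma's trend and robust options 7 of 42, PGLS, TKT and LDHA in addition (18.3% of all genes). Without both samples numbered 2 there were 8, and with the unnumbered and 1 samples of each group averaged 0, where 26 genes in all were called and HK2 had an adjusted p of 0.126. The median change of the 42 genes moved by less than the spread between pairs (SD 0.11) under each of the 17 alternatives. Leaving out each array in turn gave 1 to 5 calls, 1 without DMSO unnumbered, DMSO 1, vemurafenib unnumbered or vemurafenib 1. Isozyme pairs without overlap numbered 5 to 8 with those arrays left out, 8 without DMSO 2 or vemurafenib 1. Groups that do not overlap stay apart when an array is left out. These counts therefore could not fall below the 5 of all samples and do not test how stable the 5 pairs are. Isozyme pairs without overlap numbered 4 with no background correction and 4 with the deposited log2 values. The replicate block gave 6 calls, and pairing changed no call of the 42 genes other than PGLS and IDH3A. GAPDH turned sign with its second probe (0.09). HK2 was called under 16 of the 17 alternatives, RPIA under 12, IDH1 under 8 and PDK2 under 7. The count over all genes was 1800, with 944 without the filter, 3344 with the block, 3649 without both samples numbered 2, and 307 to 2670 as each array was left out. Signals near background, as for PDK2 and PPARGC1A, have compressed differences, and PDK2 stood at 0.59 with an offset of 50. The cause of these shifts was not tested.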

Other observations

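A pair of sugar-handling genes picked out after their values were seen had large differences that the plain fit did not call. TXNIP, a glucose-responsive inhibitor of glucose uptake, read 10, 9.76 and 7.18 in DMSO unnumbered, 1 and 2 and 11.89, 12.24 and 9.61 in the vemurafenib samples. Within each number the treated sample was higher, while vemurafenib 2 lay below the higher 2 controls. The log2 change of 2.27 (SE 0.89) had an adjusted p of 0.123 by limma and 0.00122 with the replicate block. SLC2A12, a facilitative glucose transporter, read 5.55, 5.52 and 4.19 in DMSO and 7.98, 8.63 and 5.87 in vemurafenib, with no overlap. The gene was not detected in DMSO 2, so that value is at background and the size of its change is approximate. Its change of 2.41 (SE 0.69) had an adjusted p of 0.0541 by limma, 0.00263 with the block and 0.00395 without vemurafenib 2.

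SLC2A3, a high-affinity glucose transporter, differed by -0.70 without passing (limma, adjusted p = 0.363) and fell with the block (0.0461). Among hypoxia-inducible targets that fell with the block, the peptide hormone gene ADM stood at -1.19 (limma, adjusted p = 0.0183 with the block and 0.135 without), and the endoplasmic reticulum oxidase ERO1A at -0.69 (0.0483 and 0.128).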
